A study of Mus musculus with 11 samples.

Results

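The genes described here lie along the distal part of mouse chromosome 6, around *Srgap3* and *Lrtm2*. Both were among the most strongly changed genes in mouse liver after a decoy RNA against *miR-379* and *miR-541* had been delivered. The question was whether genes beside them on the chromosome changed too, as would be predicted if a stretch of chromosome 6 differed between the groups of animals. In all, 44 genes of the chromosome were listed. *Srgap3* and *Lrtm2* were chosen by their values in this same contrast, so they are described without a test. The other 42, called neighbours here, were listed for their place on the chromosome, but not every gene of the region was listed. The list was made with earlier results of these data known. The deposited table holds 13669 genes, among them 41 of the 44. *Kbtbd8*, *Ogg1* and *Fancd2* were not analysed here. A gene was tested if 5 or more livers had over 10 of its reads. All 41 met this, 39 of them neighbours, and 13334 genes met it in all. The stated stretch begins at 95 Mb, but the first 7 neighbours, from *Iqsec1* to *Lsm3*, lie before it, between positions 90656088 and 91522625 of chromosome 6 (GRCm38).

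Livers of 11 male C57BL/6J mice were compared. All animals were wild-type, ate regular chow and had received a recombinant adeno-associated virus of serotype 8 (AAV) whose cargo was driven by LP1, a promoter active in hepatocytes. In 6 livers (AAV-TuD) the cargo was a tough decoy, an RNA hairpin that holds binding sites for the 2 miRNAs, and in 5 livers (AAV-NC) it was a negative control sequence. Per the study's methods, mice were bought at 6 weeks of age, acclimated for 4 weeks, and killed after a fast 4 weeks to 3 months after the virus. The exact time for these livers is not given in the sources used here. The control livers carried virus as well, so no liver without virus is in the comparison. RNA was measured by sequencing from the 3′ end of transcripts, and the authors deposited raw counts per gene, from 8148531 to 12043959 per liver. Values below are CPM, a gene's reads scaled to a common library total, after correction of library sizes by TMM, a factor that removes differences in composition between libraries. A gene was called changed at an adjusted p value under 0.05 in the edgeR quasi-likelihood test across all genes. Whole liver was sequenced, so fewer cells of a type and less RNA per cell cannot be told apart. Whether the livers came from separate litters or batches was not given in the sources used here, so p values measure only the spread between these livers.

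*Srgap3* encodes a member of the Slit-Robo GTPase activating proteins. These proteins bind membranes through an F-BAR domain, shape protrusions of the cell surface and switch off Rac, a small GTPase that drives actin assembly through the WAVE and Arp2/3 complexes. The family is best known from migrating and branching neurons. *Lrtm2* encodes a membrane protein with leucine-rich repeats. A miRNA represses transcripts by pairing of its seed, bases 2 to 8, with sites that lie mostly in the 3′ untranslated region (UTR).

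The 5p mature sequences of the targeted miRNAs are shown first, since they define the sites searched among the members. They were taken from RefSeq (GRCm38.p6), run 5′ to 3′, and have the seed in capitals. Both come from the plus strand of chromosome 12, and the seeds are not shared.
mmu-miR-379-5p: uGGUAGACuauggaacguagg
mmu-miR-541-5p: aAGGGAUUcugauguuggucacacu
The site searched for *miR-379* was GUCUACC and that for *miR-541* was AAUCCCU, on the transcript strand, in the longest 3′ UTR annotated for a gene. Of the 41 members, 3 held the *miR-379* site (7.32%), against 5.72% of 10935 tested genes with an annotated 3′ UTR. The *miR-541* site was found in 4 members (9.76%), against 9.51% of these genes. The following 3 lines show the *miR-379* sites in *Srgap3*, *Erc1* and *Hdac11* with the matched bases in capitals. The matches begin at base 3012, 2616 and 902 of 3′ UTRs of 4817, 4829 and 1428 bases.
Srgap3: caaggggaagugguGUCUACCaauguuca
Erc1: ccugugucagcaguGUCUACCccaaguga
Hdac11: ucuguggccccaagGUCUACCugcccucu
*Srgap3* and *Erc1* were lower with AAV-TuD, as described below, and *Hdac11*, a histone deacetylase, had a log2 fold change of -0.08. The *miR-541* sites stand in *Eogt*, *Tmf1*, *Mkrn2* and *Dcp1b*, with the matched bases again in capitals.
Eogt: gggccucuggguuuAAUCCCUagcaacac
Tmf1: gcuugugauccgguAAUCCCUuuguucuu
Mkrn2: ggaugaaguguguuAAUCCCUagggaaug
Dcp1b: aaggcucuugguucAAUCCCUagcacuua
Their log2 fold changes were 0.28, -0.25, 0.06 and -0.29, and none passed the threshold. The 3′ UTR of *Lrtm2*, of 1923 bases, held neither site. The study reports that the decoy also lowered other miRNAs of the same genomic cluster and their host transcripts in liver. Sites for those other miRNAs were not searched, so whether *Lrtm2* or any other member holds one was not tested. A match is a description of sequence and not evidence of binding.

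*Srgap3* (ENSMUSG00000030257, chromosome 6, 112717971 to 112947266, minus strand) was low but present in every AAV-NC liver. Its levels in the AAV-NC livers 1, 2, 6, 7 and 8 were 9.07, 11.2, 6.20, 7.26 and 7.69 CPM, or 8.28 ± 1.93 (SD, n = 5). In the AAV-TuD livers the lowest was 0.729, the median 1.42 and the highest 1.73 CPM, or 1.27 ± 0.395 (SD, n = 6). The groups lay far apart, with every AAV-TuD liver below every AAV-NC liver. The counts behind these values were 358 reads over the AAV-NC livers and 84 over the AAV-TuD livers. The log2 fold change was -2.70 ± 0.22 (SE), with a 95% confidence interval from -3.17 to -2.23. *Srgap3* was chosen by this contrast, so the interval makes no allowance for that choice and is not a test.

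*Lrtm2* (ENSMUSG00000055003, chromosome 6, 119315133 to 119330766, minus strand) moved the other way and was close to undetected in the controls. The AAV-NC livers 1 and 2 had 0 reads, livers 6 and 7 had 1 read each and liver 8 had 3 reads, or 0.106 ± 0.120 CPM (SD, n = 5). With AAV-TuD the lowest liver had 0.637, the median was 3.30 and the highest 4.62 CPM, or 3.15 ± 1.39 (SD, n = 6). All AAV-TuD livers were above all AAV-NC livers. AAV-TuD liver 5, with 6 reads, stood well below the other 5, which had 32 to 57 reads. The fitted log2 fold change was 4.66 ± 0.61 (SE), with a 95% confidence interval from 3.36 to 5.95. The interval makes no allowance for the choice of *Lrtm2* by this contrast and is not a test. The fitted value depends on the prior count of the fit, which is not the 2 used for log2 CPM. This is because only 5 reads were counted in the controls. *Lrtm2* passed the filter through the AAV-TuD livers alone. The gene lies inside *Cacna2d4*, a calcium channel subunit gene on the opposite strand, which has no row in the table. The strand setting of the counting was not given in the sources used here, so reads of the 2 genes may not have been separated.

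**Figure D1:**
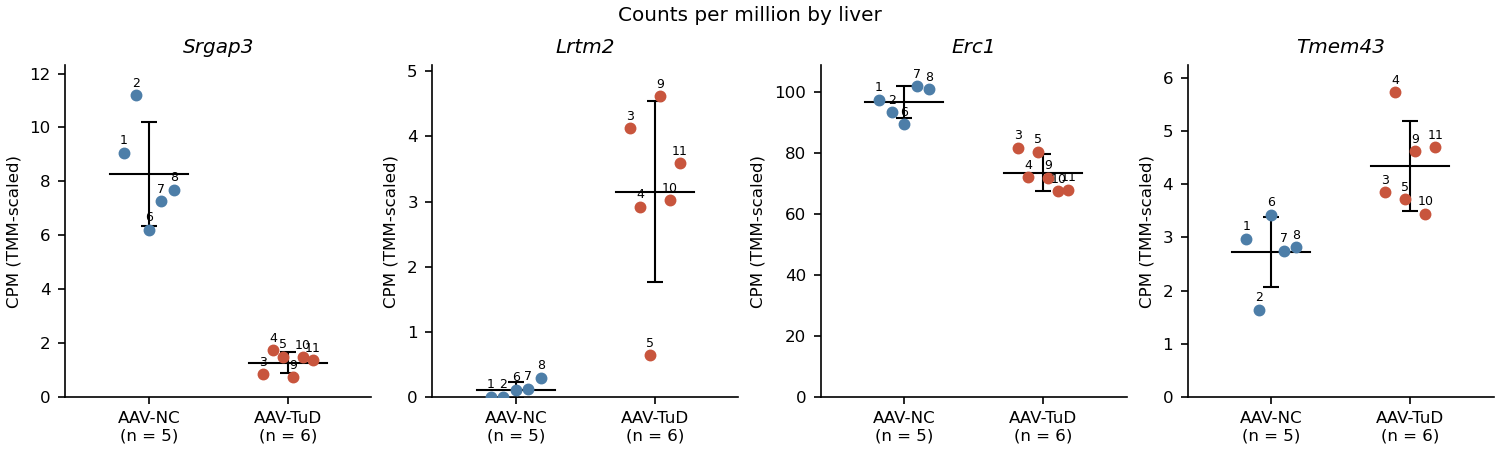
CPM on TMM-scaled library sizes (vertical axis) of Srgap3, Lrtm2, Erc1 and Tmem43 in each liver by group (horizontal axis). Each point is 1 liver with its replicate number, the horizontal line is the mean and the bar is ± 1 SD (n = 5 AAV-NC, n = 6 AAV-TuD). The means were 8.28 and 1.27 for Srgap3, 0.106 and 3.15 for Lrtm2, 96.6 and 73.7 for Erc1 and 2.73 and 4.35 for Tmem43, with no overlap between the groups in any of the 4 panels.

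The starts of *Srgap3* and *Lrtm2* are 6.38 Mb apart. The genes nearest to each were compared between the groups. *Thumpd3*, a putative RNA methyltransferase gene that starts 0.099 Mb from *Srgap3*, had 8.71, 11.1, 10.5, 10.3 and 11.3 CPM in the 5 AAV-NC livers. With AAV-TuD it ranged from 9.06 through a median of 10.7 to 12.4 CPM. The groups overlapped almost completely, with a log2 fold change of 0.04 (95% confidence interval -0.20 to 0.28). *Setd5*, a chromatin regulator gene whose start lies 0.13 Mb away, had 41.2 ± 2.71 (SD, n = 5) and 45.7 ± 4.64 CPM (SD, n = 6), a log2 fold change of 0.15 (-0.03 to 0.33). On the other side of *Srgap3*, 21.3 kb past its end, starts *Rad18*, a DNA damage tolerance gene that is not among the 44. It was called higher, as described below.

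*Adipor2*, which encodes an adiponectin receptor and starts 0.0869 Mb from *Lrtm2*, had the highest CPM of the neighbours. Its mean level was 272 ± 16.9 CPM (SD, n = 5) in the controls and 254 ± 15.8 (SD, n = 6) under the decoy. The groups overlapped, and the log2 fold change was -0.10 (95% confidence interval -0.24 to 0.05). *Dcp1b*, an mRNA decapping cofactor gene that starts 0.156 Mb before *Lrtm2* counted along the chromosome, had 1.16 ± 0.378 and 0.942 ± 0.297 CPM, a log2 fold change of -0.29 (-0.91 to 0.34). *Fbxl14*, an F-box gene 0.149 Mb on the other side, had 2.69 ± 1.03 and 2.04 ± 0.612 CPM, a log2 fold change of -0.39 (-0.97 to 0.19). *Wnt5b*, a Wnt ligand gene that is not among the 44 and starts 0.214 Mb from *Lrtm2*, had 4.54 ± 0.935 and 6.04 ± 1.59 CPM, a log2 fold change of 0.40 (-0.02 to 0.82, edgeR adjusted p = 0.219), in the direction of *Lrtm2* and not called. The groups of these 3 genes overlapped, and a change of a size inside these wide intervals was not detectable at this depth.

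**Figure D2:**
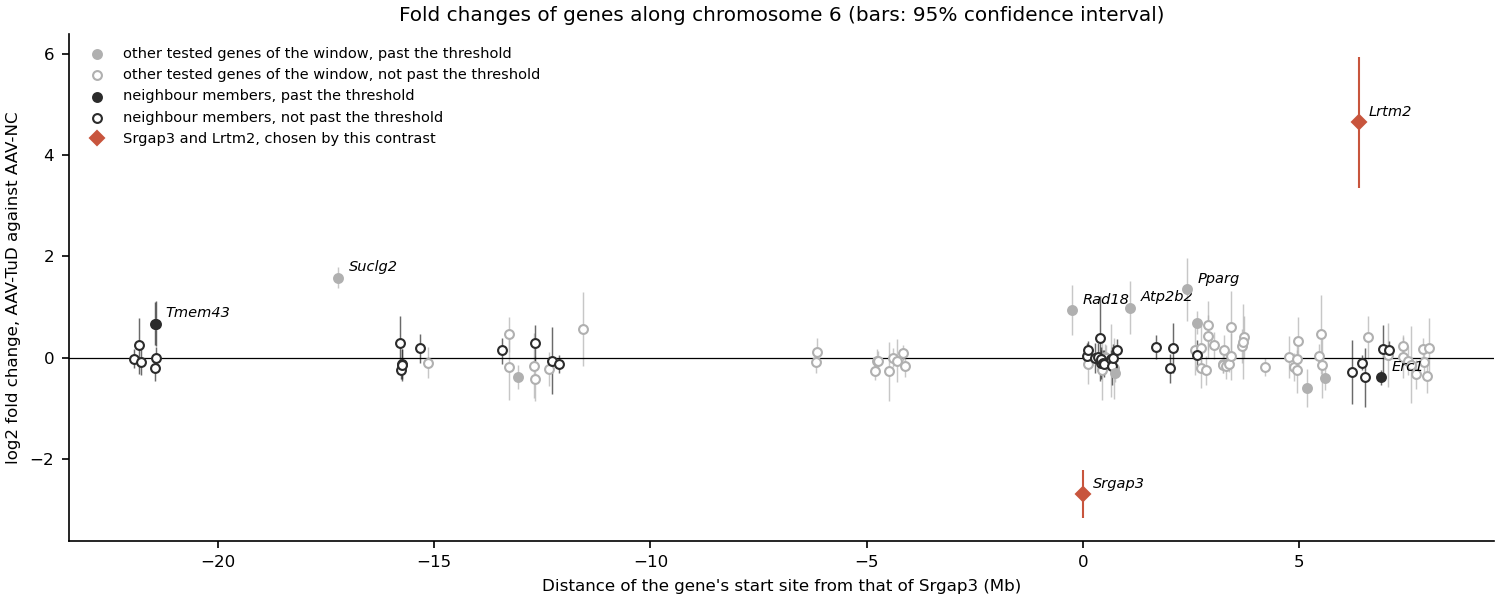
Log2 fold change of AAV-TuD against AAV-NC with its 95% confidence interval (vertical axis) against the distance in Mb of each gene's start site from that of Srgap3 (horizontal axis), for the tested genes of the window and the 7 members before it. Diamonds are Srgap3 at -2.70 and Lrtm2 at 4.66, both chosen by this contrast. Black circles are the 39 neighbour members, all between -0.39 and 0.67, and grey circles the other genes. Filled circles passed the adjusted p threshold.

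Among all 13334 genes, 1543 were called changed (11.6%), 966 higher (7.24%) and 577 lower (4.33%). Of the 39 neighbours tested, 2 were called (5.13%), 1 in each direction. Of the 32 neighbours inside the stated stretch, 1 was called (3.12%). In 985 of all genes (7.39%) the groups did not overlap, and the same held for 2 of the 39 neighbours (5.13%). Of all genes, 469 were called with a log2 fold change of 1 or more in size (3.52%), and 0 of the 39 neighbours were. None of these shares of the neighbours was above that of all genes. The members were listed with earlier results of these data known, so these shares and those of the blocks below only describe the list. Among the 70 unlisted genes of the stretch, 9 were called (12.9%). The neighbours' log2 fold changes were positive in 19 and negative in 20, ranged from -0.39 to 0.67 and had a median of -0.01. Their median size was 0.15, against 0.18 over all genes. The 95% confidence interval lay within 0.5 of zero for 26 neighbours (66.7%, against 46.9% of all genes) and within 1 for 36 (92.3%, against 84.6%). The 3 exceptions at the wider limit were *Tmem43*, *Lsm3* and *Camk1*, whose intervals reached 1.09, 1.12 and 1.22.

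*Erc1* encodes a scaffold protein of vesicle trafficking and the cell cortex and starts 0.517 Mb from *Lrtm2*. In the 5 AAV-NC livers it had 97.6, 93.4, 89.5, 102 and 101 CPM. In the AAV-TuD livers it had 67.6 at the lowest, 72.0 at the median and 81.8 CPM at the highest. All AAV-TuD livers were below all AAV-NC livers. The means were 96.6 ± 5.12 (SD, n = 5) and 73.7 ± 6.12 (SD, n = 6), and *Erc1* fell by a log2 fold change of -0.39 ± 0.07 (SE, 95% confidence interval -0.54 to -0.24, edgeR adjusted p = 0.00348). It was called lower with each liver left out in turn. Scaled by library size and not by TMM, its log2 fold change was -0.17 and the call was lost (adjusted p = 0.525), while the other alternatives gave adjusted p values from 1.67e-05 to 0.0101. *Erc1* moved in the direction opposite to that of *Lrtm2*.

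*Tmem43*, which encodes a protein of the inner nuclear membrane, lies before the stated stretch, 21.5 Mb from *Srgap3*. Its levels were 2.98, 1.64, 3.43, 2.75 and 2.82 CPM in the AAV-NC livers. In the AAV-TuD livers the lowest was 3.45, the median 4.23 and the highest 5.74 CPM. The groups did not overlap, but the lowest AAV-TuD liver and the highest AAV-NC liver nearly met. *Tmem43* rose by a log2 fold change of 0.67 ± 0.20 (SE, 95% confidence interval 0.24 to 1.09, edgeR adjusted p = 0.0407). This call rested on few reads, 120 in the AAV-NC and 291 in the AAV-TuD livers, and was lost without any one of AAV-NC livers 1, 2, 7 and 8 and AAV-TuD livers 4, 9 and 11, with adjusted p values up to 0.0935. Over all alternatives the adjusted p value ran from 0.0216 to 0.0935.

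The block from *Iqsec1* to *Lsm3* also held the neighbour closest to the threshold. *Lsm3*, which encodes an Sm-like protein of the spliceosome and of mRNA decay, had 1.55, 1.64, 2.32, 2.88 and 2.63 CPM with AAV-NC and from 2.65 to 4.53 CPM with AAV-TuD. The groups overlapped by 1 liver on each side, and the log2 fold change was 0.67 (95% confidence interval 0.22 to 1.12, edgeR adjusted p = 0.0512). It passed the threshold with DESeq2, limma-voom, upper-quartile factors or library size alone and without AAV-NC liver 7 or AAV-TuD liver 11, and its adjusted p value over all alternatives ran from 0.0221 to 0.119. The start of *Lsm3* is 40 bases from that of *Xpc*, a sensor of DNA damage in nucleotide excision repair that is transcribed away from it. *Xpc* had 13.5 ± 1.46 and 13.5 ± 1.27 CPM, a log2 fold change of 0.00 (-0.21 to 0.21). In the same way the start of *Tmem43* is 157 bases from that of *Chchd4*, a mitochondrial import gene, which had 9.71 ± 1.48 and 8.49 ± 0.950 CPM and a log2 fold change of -0.20 (-0.46 to 0.06). The other head-to-head pair of members, *Tada3* and *Arpc4*, with 232 bases between starts, had log2 fold changes of -0.11 and -0.02. The differences within these pairs were not tested. *Iqsec1*, *Nup210* and *Hdac11*, the remaining genes of the block, had log2 fold changes of -0.02, 0.24 and -0.08.

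In the block from *Kbtbd8* to *Ppp4r2*, the members tested lay between about 16 and 12 Mb from *Srgap3*. Of these, 0 of 9 were called by edgeR, against 11.6% of all genes, and 1 had an unadjusted p under 0.05, *Tmf1*. DESeq2 and limma-voom each called *Tmf1* as well. This Golgi and transcription modulator gene had 71.5 ± 4.17 CPM (SD, n = 5) against 60.3 ± 6.97 (SD, n = 6). Its log2 fold change was -0.25 (95% confidence interval -0.42 to -0.07, edgeR adjusted p = 0.0661), and the groups overlapped. The value was -0.02 with library size alone. The forkhead gene *Foxp1*, the Polycomb component *Rybp* and the FERM domain gene *Frmd4b* had log2 fold changes of 0.14, 0.29 and 0.18. *Eogt*, *Uba3*, *Arl6ip5*, *Shq1* and *Ppp4r2* lay between -0.15 and 0.28.

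The block that begins with *Srgap3* and ends with *Mkrn2* gave the closest view of its surroundings, with 17 of 19 neighbours tested within 2.65 Mb. Of these, 0 were called by edgeR, DESeq2 or limma-voom, against 11.6% of all genes by edgeR, and 0 had an unadjusted p under 0.05. Among them 9 log2 fold changes were positive and 8 negative, the median was 0.00, and the values ran from -0.21 to 0.38. In 14 of the 17 the confidence interval stayed within 0.5 of zero. The block holds a pair of genes that act in the actin pathway that *Srgap3* restrains. *Arpc4*, a subunit of the Arp2/3 complex, had 39.2 ± 2.02 and 38.8 ± 3.06 CPM, a log2 fold change of -0.02 (-0.17 to 0.14). *Brk1*, a subunit of the WAVE complex, had 22.7 ± 0.291 and 22.2 ± 1.86 CPM, a log2 fold change of -0.03 (-0.19 to 0.14).

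Other genes of that block covered immune signalling, secretion, oxygen sensing and autophagy. *Irak2*, a kinase of interleukin-1 receptor signalling, had 16.7 ± 3.64 and 16.6 ± 1.39 CPM. *Sec13*, a coat component of vesicles that leave the endoplasmic reticulum, had 14.2 ± 1.57 and 15.8 ± 1.54. *Vhl*, which marks hypoxia-inducible factors for degradation, had 5.16 ± 0.956 and 4.57 ± 0.966, and the autophagy gene *Atg7* 17.0 ± 2.87 and 19.5 ± 1.48. All 4 pairs of groups overlapped, with log2 fold changes of 0.00, 0.15, -0.17 and 0.20. *Camk1*, a calmodulin-dependent kinase gene with only 61 and 124 reads, had the largest value of the block, 0.38 (-0.46 to 1.22). *Vgll4* had the lowest, -0.21 (-0.50 to 0.08). *Mtmr14*, *Brpf1*, *Tada3*, *Rpusd3*, *Jagn1*, *Tamm41* and *Mkrn2* lay between -0.12 and 0.19.

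In the last block, from *Dcp1b* to *Wnk1* around *Lrtm2*, 1 of 6 neighbours was called, *Erc1* (16.7%, against 11.6% of all genes). *Wnk1*, a kinase that regulates ion transport, had 84.4 ± 7.53 and 93.2 ± 9.75 CPM, a log2 fold change of 0.14 (-0.04 to 0.32). *Rad52*, a homologous recombination gene, had 2.53 ± 0.681 and 2.83 ± 0.622 CPM and a log2 fold change of 0.17 (-0.31 to 0.64).

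By role, both calls fell in the list named for the secretory pathway, glycosylation and nuclear pore, with 7 tested genes (28.6%, against 11.6% of all genes). They were *Erc1* and *Tmem43*, which moved in opposite directions. *Tmem43* was placed in this list as a gene of the inner nuclear membrane, which is not a role in its name. The lists were made with earlier results known, so this share only describes the list. None of the 4 actin neighbours, 8 chromatin and transcription genes, 6 ubiquitin, NEDD8 and autophagy genes, 5 RNA genes, 5 signalling genes, 2 DNA repair genes and 2 mitochondrial genes was called by edgeR. An unadjusted p under 0.05 was reached by 1 of the chromatin and transcription genes, *Tmf1*, and 1 of the RNA genes, *Lsm3*.

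Single neighbours varied between livers. Their differences in log2 CPM from the AAV-NC mean ran from -1.84, for *Camk1* in AAV-NC liver 8, to 1.06, for *Camk1* in AAV-TuD liver 11. The median over the 39 neighbours of this difference lay between -0.03 and 0.05 in the AAV-NC livers and between -0.05 and 0.09 in the AAV-TuD livers. The medians of the 2 groups overlapped. TMM itself holds the middle of all genes near zero, so these medians show the neighbours only against the other genes.

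**Figure D3:**
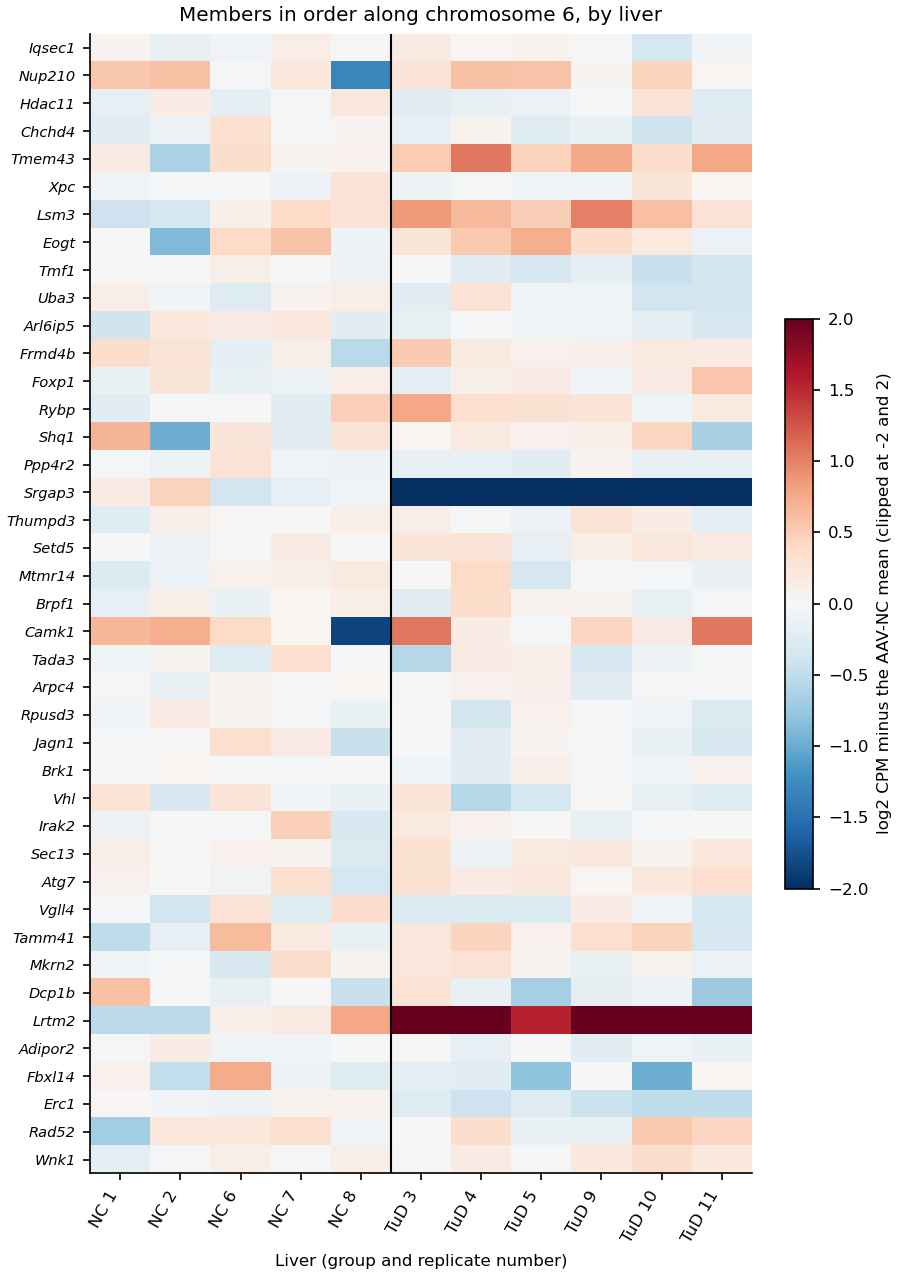
Log2 CPM minus the AAV-NC mean (colour, clipped at -2 and 2) of the 41 tested members, in order along chromosome 6 from top to bottom, in each of the 5 AAV-NC and 6 AAV-TuD livers from left to right. Srgap3 (blue) is at the limit of the colour scale in all 6 AAV-TuD livers and Lrtm2 (red) in 5 of them, with AAV-TuD liver 5 at 1.54.

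All tested genes of the stretch were also counted, so that the count did not depend on which genes had been listed. The stretch itself had been named as a place where strongly changed genes lie. Its shares are therefore not independent of this contrast, also without *Srgap3* and *Lrtm2*. Of 104 tested genes that lie wholly in it, 12 were called (11.5%), 6 higher and 6 lower, and the groups did not overlap in 8 (7.69%). Without *Srgap3* and *Lrtm2* these were 10 of 102 (9.8%) and 6 of 102 (5.88%). On the rest of chromosome 6, 68 of 576 genes were called (11.8%), and the shares of single chromosomes ran from 9.0% for chromosome 12 to 15.1% for chromosome 1. With a log2 fold change of 1 or more in size, 4 genes of the stretch were called (3.85%), *Srgap3* and *Lrtm2* included. The median log2 fold change of the 104 genes was -0.03. Within 1 Mb of the start of *Srgap3*, 2 of 22 other genes were called (9.09%), and within 2 Mb 3 of 24 (12.5%), against 11.6% of all genes. Around *Lrtm2* these counts were 2 of 12 (16.7%) and 3 of 31 (9.68%). Of the 70 unlisted genes of the stretch, 9 were called (12.9%), where 1 of the 32 listed neighbours in it was, and this difference was not tested.

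**Figure D4:**
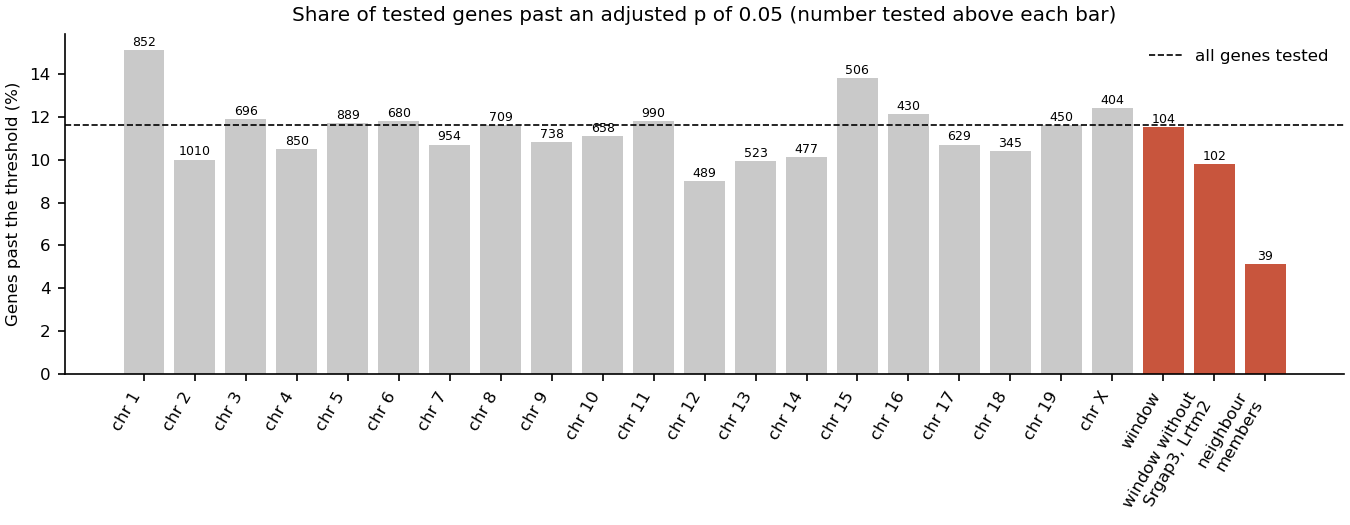
Percentage of tested genes past an adjusted p of 0.05 (vertical axis) for each chromosome and, in red, for the stretch of chromosome 6, the stretch without Srgap3 and Lrtm2, and the 39 neighbour members (horizontal axis). The number of genes tested stands above each bar and the dashed line marks 11.6% of all genes; the red bars are at 11.5%, 9.8% and 5.13%.

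The 9 called genes of the stretch that had not been listed were spread along it. *Suclg2*, which encodes a GTP-specific subunit of succinyl-CoA synthetase in the mitochondrial citrate cycle, is the first tested gene of the stretch, 17.2 Mb from *Srgap3*. It had 52.2, 44.9, 39.3, 32.5 and 47.1 CPM in the AAV-NC livers and from 122 to 136 CPM in the AAV-TuD livers. The groups lay far apart, with a log2 fold change of 1.58 ± 0.10 (SE, edgeR adjusted p = 7.50e-07), the smallest p value of all genes. *Magi1*, the tested gene just before the stretch, had a log2 fold change of -0.15, and *Gm43915* and *Pex26*, at its far edge, 0.19 and -0.29, none of them called.

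Further genes of the stretch were higher. *Pparg*, a nuclear receptor of lipid storage, had 1.02 ± 0.380 and 2.59 ± 0.750 CPM, a log2 fold change of 1.35 (edgeR adjusted p = 0.00883). *Atp2b2*, a plasma membrane calcium pump, had 3.97 ± 0.605 and 7.95 ± 2.99 CPM (0.99, adjusted p = 0.0182). *Rad18* had 1.60 ± 0.594 and 3.15 ± 0.554 CPM (0.94, adjusted p = 0.0168). The groups of all 3 genes overlapped. The 4 lower genes were *Csgalnact2* (-0.60), *Ankrd26* (-0.40), *Tpt1-ps3* (-0.39) and *Tatdn2* (-0.30), with edgeR adjusted p values between 0.0319 and 0.0416. With library size alone none of these 4 was called, at -0.37, -0.18, -0.17 and -0.07, whereas *Suclg2*, *Pparg*, *Atp2b2* and *Rad18* stayed higher. The same 4 higher genes were also called with each liver left out in turn, while the 4 lower genes lost the call in 5 to 9 of the 11 fits with a liver left out, AAV-NC liver 1 among them for each, at adjusted p values up to 0.116. *Tpt1-ps3* is a processed pseudogene, so its reads may be those of its parent gene.

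Overlap with other genes limits some of these values. Of the 44 members, 28 overlap another annotated gene and 12 overlap one that was tested. Examples are *Arpc4* with *Ttll3* on the same strand and *Thumpd3* with *Gt(ROSA)26Sor* on the opposite strand. Reads of a gene and its partner on the opposite strand cannot be told apart unless the counting used strand. For partners on the same strand, strand would not separate them either.

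Away from chromosome 6, genes that act with *Srgap3* were compared with it. Of 26 listed relatives and partners, 20 were tested, and 7 were called higher (35%) and 0 lower by edgeR, against 7.24% and 4.33% of all genes. This list was made with earlier results of these data known, so the share only describes the list. The counts of higher genes were 6 or 7, and of lower genes 0, under the other tools and scalings. *Srgap2*, a paralog, rose from 12.7 ± 1.66 to 19.1 ± 1.75 CPM (log2 fold change 0.59, edgeR adjusted p = 0.00304), while *Srgap1* had 2.09 ± 0.504 and 2.49 ± 0.438 and was not called. The Slit receptors *Robo1* and *Robo2* rose by 1.20 and 1.02 on the log2 scale (adjusted p = 0.00444 and 0.0155). The Arp2/3 subunit genes *Arpc1b*, *Arpc3* and *Actr3* and the WAVE complex gene *Cyfip1* rose by 0.64, 0.28, 0.26 and 0.33. Their complex partners on chromosome 6, *Arpc4* and *Brk1*, were at -0.02 and -0.03. Subunit genes of these complexes on other chromosomes were not called either, namely *Arpc1a* (-0.10), *Arpc2* (-0.04), *Arpc5* (0.12), *Actr2* (-0.01), *Wasf2* (0.20), *Nckap1* (0.09), *Abi1* (0.05) and *Abi2* (0.16). With library size alone, which moved the median of all genes by 0.23, *Arpc4* and *Brk1* were at 0.21 and 0.20 and were not called. *Lrtm1*, the relative of *Lrtm2*, fell from 23.2 ± 10.6 to 11.1 ± 2.75 CPM, a log2 fold change of -1.05 (edgeR adjusted p = 0.0209), in the direction opposite to that of *Lrtm2*. With a liver left out, *Srgap2*, *Robo1*, *Robo2* and *Arpc1b* stayed called in all 11 fits. *Arpc3* lost the call without AAV-NC liver 1 or 6 or AAV-TuD liver 4, *Lrtm1* without AAV-NC liver 1, 2 or 7, and *Actr3* and *Cyfip1* in 8 and 9 of the fits.

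Markers of liver cell types differed between the groups as well. Over all genes, edgeR called 7.24% higher and 4.33% lower. The marker lists were made with earlier results of these data known, so their counts only describe the lists. All 8 hepatocyte markers were tested, 0 higher and 2 lower (0 and 0 with library size alone, 1 and 3 with DESeq2). Their median log2 fold change was -0.19, and 0.03 with library size alone. Their summed level, to which abundant markers add most, was 37712 to 43821 CPM with AAV-NC and 44003 to 50765 with AAV-TuD. The sum was higher with AAV-TuD although edgeR called no single marker higher. Of 9 stellate cell markers, 7 were higher, with sums of 208 to 265 and 355 to 475 CPM. Of 7 Kupffer cell markers 4 were higher, with sums of 69.5 to 105 and 78.5 to 224 CPM. All 4 tested of 6 cholangiocyte markers were higher (20.3 to 40.9 and 47.5 to 79.3 CPM), and 0 of 7 sinusoidal endothelial markers were called by any tool, with 0 at an unadjusted p under 0.05 (229 to 255 and 237 to 253 CPM). AAV-TuD liver 5, which had the lowest *Lrtm2* of its group, also had the lowest stellate and cholangiocyte sums of that group, 355 and 47.5 CPM, while its Kupffer and hepatocyte sums, 183 and 46016 CPM, were higher than those of all but 1 liver of the group. Of the markers listed for neurons and Schwann cells, *Syt1* had 10.1 ± 3.59 and 6.27 ± 2.27 CPM and *Ngfr* 2.64 ± 0.979 and 3.86 ± 1.43, with log2 fold changes of -0.68 and 0.54 that were not called (edgeR adjusted p = 0.104 and 0.273). The part of these markers in the changes of *Srgap3*, *Lrtm2* and their neighbours was not tested.

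*Nnt*, on chromosome 13, encodes a mitochondrial transhydrogenase that lacks internal exons in C57BL/6J mice. Its level was 3.40 ± 0.620 CPM (SD, n = 5) in the controls and 2.46 ± 0.395 (SD, n = 6) under the decoy. The groups overlapped, and the log2 fold change was -0.45 (95% confidence interval -0.84 to -0.07, edgeR adjusted p = 0.122). Counts from the 3′ end lie outside the deleted exons, so this value does not check the substrain of either group.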

How the data were processed

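Per the labels and methods, the authors used BBDuk for trimming, STAR (2.5.3a in the submitters' processing notes) for alignment to GRCm38 and Rsubread for counting per gene. The deposited values are raw counts. The annotation and strand setting are not given in the sources used here. Each of the 11 columns was matched to 1 liver by its label.

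A gene was tested if over 10 of its reads were seen in each of 5 or more livers, with the edgeR 4.0.16 quasi-likelihood test in R 4.3.3, with TMM scaling, group as the only term and Benjamini-Hochberg adjustment over all 13334 genes, at an adjusted p under 0.05. Log2 CPM used a prior count of 2. A standard error is the size of the log2 fold change divided by the square root of the test's F statistic. The 95% intervals were built from these standard errors. Positions are those of GENCODE M21 (GRCm38), which holds 13658 of the 13669 identifiers, and start sites are the 5′ ends of its genes. Its transcripts gave the 3′ UTRs. The script was checked on simulated counts. A gene at 1 CPM has about 10 reads per liver, so genes near that level have large counting error.

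The members, roles and lists were chosen with earlier results of these data known. Named genes are all members, called genes of the stretch, the nearest tested genes to *Srgap3* and *Lrtm2* and those at its edges. Not every gene so chosen is reported here. The alternatives were DESeq2 1.42.0, its size factors, filterByExpr, no filter, upper-quartile factors, library size alone, limma-voom (limma 3.58.1), removal of the 50 most abundant genes, other spans of the chromosome and each liver left out. Protein-coding genes alone and members inside the stretch alone were chosen later, after seeing the data.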

Additional observations from a re-analysis of the deposited data

Results flagged for a closer look

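In 13 of 118 groups of values examined, 1 liver stood apart from the rest of its group, where chance gives about 1 in 20, or 5.9. The measure is the gap between that liver and its nearest companion as a share of the whole range of the group. AAV-NC liver 8 accounted for 5 of the 13, being highest for *Xpc* (16.1 CPM, gap share 0.775), *Tatdn2* (22.2 CPM, 0.743), *Rad18* (2.63 CPM, 0.718) and *Rybp* (10.3 CPM, 0.715) and lowest for *Sec13* (11.5 CPM, 0.732). Among the other AAV-NC livers, liver 6 was highest for *Ppp4r2* (45.9 CPM, 0.805), liver 2 for *Brk1* (23.2 CPM, 0.770) and liver 1 for *Csgalnact2* (7.28 CPM, 0.726). Among the AAV-TuD livers, liver 3 was highest for *Frmd4b* (53.7 CPM, 0.806), liver 9 for *Ppp4r2* (39.5 CPM, 0.728) and *Pex26* (16.3 CPM, 0.677), while liver 5 was lowest for *Setd5* (36.8 CPM, 0.651) and liver 10 for *Ankrd26* (9.31 CPM, 0.626).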

How the results depend on the processing

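No paired analysis was possible because no replicate number occurs in both groups. The number of neighbours called was 4 with DESeq2 and 4 with limma-voom, where *Lsm3* and *Tmf1* joined *Erc1* and *Tmem43*, and 1 among the members inside the stretch alone. It lay between 1 and 3 with each liver left out, when the count over all genes ran from 1012 (without AAV-TuD liver 4) to 1829 (without AAV-TuD liver 3). With library size alone, the median log2 fold change was 0.23 over all genes, 0.23 over the neighbours and 0.20 over the stretch, 95.1% of calls were higher, against 62.6% with TMM, the neighbours called were *Lsm3* and *Tmem43*, and those without overlap were *Atg7* and *Lsm3*. The cause was not tested. Narrower spans were counted without *Srgap3* and *Lrtm2*. They gave 2 of 22 and 3 of 24 calls within 1 and 2 Mb of *Srgap3* and 2 of 12 and 3 of 31 around *Lrtm2*. Counted in the same way, the stretch gave 10 of 102. With livers left out, the calls in the stretch ran from 8 to 11, its median from -0.05 to 0.00 and that of the neighbours from -0.02 to 0.01. *Srgap3* stayed between -2.80 and -2.57. *Lrtm2* ran from 4.38 to 5.46 in the fits that held it, and without any one of AAV-TuD livers 3, 4, 9, 10 and 11 it did not pass the filter. Over the single genes and settings, 1058 values stayed on their side of the threshold, 9 passed it anew and 44 no longer passed it. The sign changed in 41 of the 1058, in 23 genes, 20 of these changes with library size alone. Genes near 1 CPM, such as *Dcp1b* and *Camk1*, are limited by depth.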
